A study of Rattus norvegicus with 6 samples.

Results

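The genes described here are 10 targets of the hypoxia-inducible factors (HIF), the transcription factors that switch on the response to low oxygen. They were listed by name, with earlier results of these data already known: Vegfa, Adm, Pgk1, Ldha, Pfkfb3, Bnip3, Egln1, Egln3, Ndrg1 and Kdm3a. An array probe was assigned to a gene when its transcript accession belonged to that gene in the rat RefSeq gene table. In this way 9 of the 10 genes had at least 1 probe, and all 9 passed the filter on dim probes and were tested, among 11965 genes tested in all. No probe was named Egln1, so that gene was not analysed here. All 9 probes used were well above background on all 6 arrays, and none of them was saturated.

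Renal cortex was taken from 6 rats, all male Sprague-Dawley (Crl:CD(SD)) animals bought at 5 weeks of age and kept on a basal diet, and its total RNA was measured. Controls (3 animals) were given water. Treated rats (3 animals) were given NTA, short for nitrilotriacetic acid trisodium monohydrate, at a daily dose of 1000 mg per kg. Both treatments lasted 4 weeks, and the labels do not name the route of dosing. Each animal was measured on 1 one-colour Agilent array. The renal cortex is a mixture of tubule, glomerular, vascular and interstitial cells, and fewer cells of a type cannot be told apart from less RNA per cell.

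HIF is a pair of proteins, an unstable alpha subunit (Hif1a or Epas1) and a stable partner (Arnt). When oxygen is present, the prolyl hydroxylases encoded by Egln1, Egln2 and Egln3 mark the alpha subunit for destruction by the VHL ubiquitin ligase. These enzymes hold an iron atom in the active site, and strong iron chelators such as deferoxamine are known to stabilise HIF in cultured cells. NTA binds divalent and trivalent metal ions. The comparison therefore asks whether the mRNAs of HIF targets were higher in the cortex of rats given this chelator. Iron, oxygen and HIF protein were not measured here.

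HIF binds a short core motif, ACGTG or GCGTG, on either strand. The promoters of 3 of the genes are shown because they carry this core close to the start of transcription and because their values below lie on different sides of 0. Each sequence is the 250 bases before the start, on the gene's own strand, from RefSeq on build GRCr8, with every match in capitals. The Ldha stretch is chr1:106507842-106508091 (plus strand), the Bnip3 stretch is chr1:203154963-203155212 (minus strand) and the Pfkfb3 stretch is chr17:71944683-71944932 (plus strand).
Ldha: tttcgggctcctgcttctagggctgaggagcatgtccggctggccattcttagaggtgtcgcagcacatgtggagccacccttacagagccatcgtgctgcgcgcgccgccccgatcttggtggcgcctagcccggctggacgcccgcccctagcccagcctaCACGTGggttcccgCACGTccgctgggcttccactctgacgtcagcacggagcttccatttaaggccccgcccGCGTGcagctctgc
Bnip3: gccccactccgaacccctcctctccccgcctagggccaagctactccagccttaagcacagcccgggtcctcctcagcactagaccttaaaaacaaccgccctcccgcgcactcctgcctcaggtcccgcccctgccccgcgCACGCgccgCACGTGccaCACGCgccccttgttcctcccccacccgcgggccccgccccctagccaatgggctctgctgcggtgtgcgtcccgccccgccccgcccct
Pfkfb3: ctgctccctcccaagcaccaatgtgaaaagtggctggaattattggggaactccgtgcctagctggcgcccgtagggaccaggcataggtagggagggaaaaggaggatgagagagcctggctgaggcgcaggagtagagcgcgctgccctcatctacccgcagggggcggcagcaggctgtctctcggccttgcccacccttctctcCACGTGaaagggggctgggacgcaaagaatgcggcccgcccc

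The Ldha promoter held 4 matches, at 87, 86, 73 and 14 bases before the start. The first 2 of these are the same letters read on both strands. The Bnip3 promoter also held 4 matches, between 108 and 90 bases before the start, 2 of which likewise share letters. Pfkfb3 held 2 matches, again 1 run read on both strands, at 42 and 41 bases before the start. Promoter sequences were matched for 8 of the 10 genes, and 5 of the 8 held the core (Ldha, Pfkfb3, Bnip3, Egln1 and Kdm3a), or 62.5%. Over all 27457 genes with a promoter of this length the share was 39.6%. A match of so few letters is a description of the sequence and not a binding site.

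None of the 9 HIF targets was called different between NTA and water by limma at an adjusted p under 0.05. Of all genes tested, 0.0752% were called, 9 genes and all of them higher in NTA. At an unadjusted p under 0.05 the count was 1 of 9, Ldha, which was lower in NTA. At the same threshold stood 12.3% of all genes tested, 929 of them higher (7.76%) and 540 lower (4.51%), so that 63.2% of them were higher, against 52.2% under quantile normalization. The median log2 difference, NTA minus water, was 0.01 over the 9 targets and 0.02 over all genes tested. Of the 9, 5 had a difference above 0 and 4 below. The 2 groups did not overlap for 1 of the 9, or 11.1%, where 20.2% of all genes tested did not overlap, 13% of them higher and 7.23% lower in NTA. With 3 animals per group, an exact permutation test of 1 gene cannot give a two-sided p below 0.1. In the values that follow, a level is the log2 of a probe's signal over the 75th percentile of its array, so that a level of 0 equals that percentile.

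**Figure D1:**
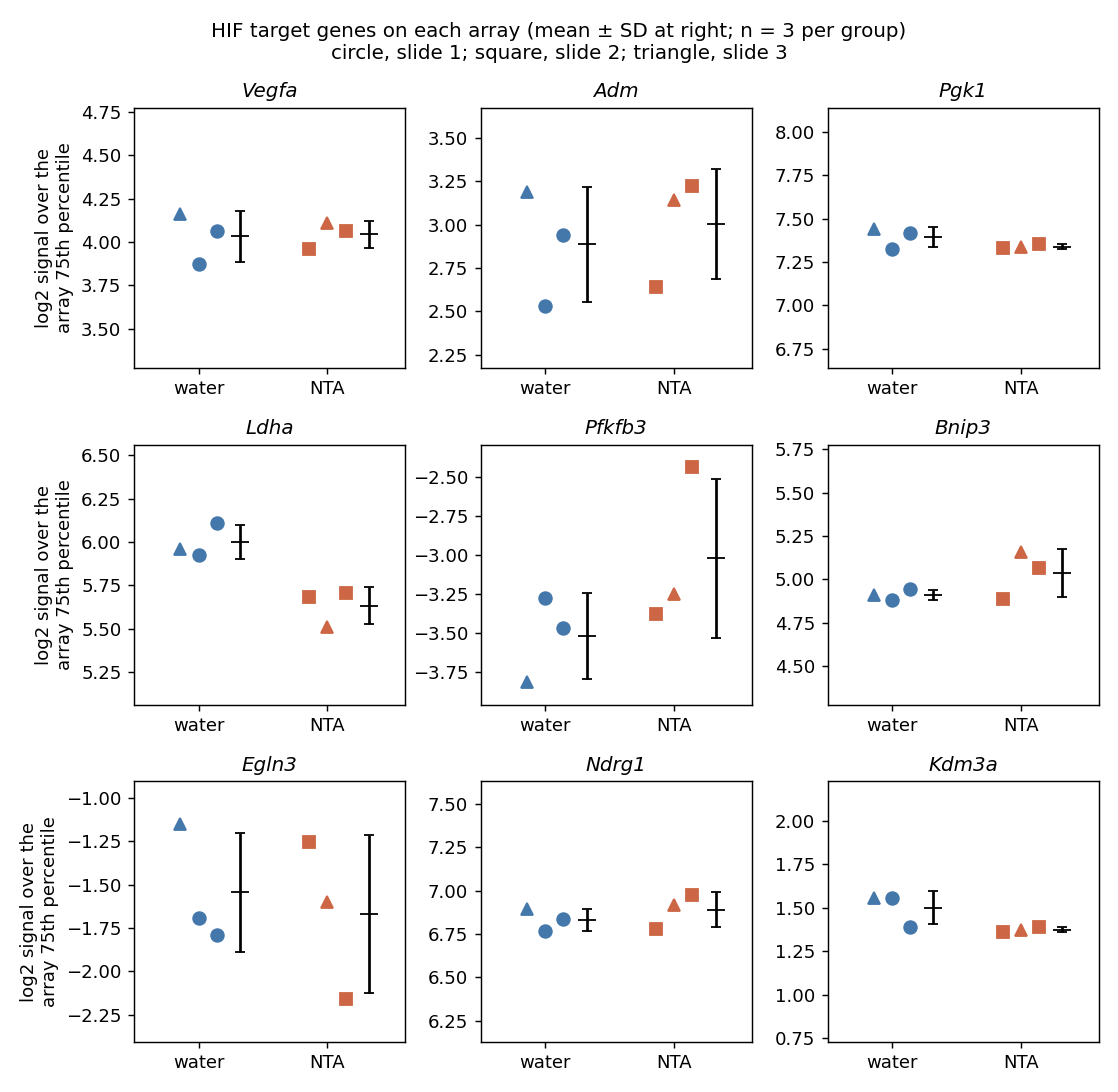
Level of each measured HIF target on each array, as log2 signal over the array's 75th percentile, for water (blue) and NTA (orange); symbols give the slide, and the bar at the right of each group is the mean ± SD (n = 3). Each vertical axis has its own range. The groups are apart for Ldha, at 5.93 to 6.11 in water and 5.51 to 5.71 in NTA, and overlap for the other 8 genes.

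Among the secreted products, Vegfa encodes vascular endothelial growth factor A, which podocytes and tubule cells supply to the capillaries beside them. Its level was 4.16, 3.87 and 4.06 in water and 3.96, 4.11 and 4.07 in NTA. The groups lay over each other, with the highest and the lowest array both in water. The difference was 0.01 ± 0.09 (SE), with a 95% confidence interval of -0.22 to 0.25 (adjusted p = 0.971). All 6 Vegfa probes were near 0, with differences of -0.06 to 0.05, 3 above 0 and 3 below. Podocyte markers, taken as a sum, shared part of the order of the arrays with Vegfa. Their summed signal, in units of the array's 75th percentile, was 68.5, 52.6 and 62.2 in water and 47.3, 60.1 and 59.7 in NTA, with 10 of 10 markers tested. For both measures water 1 was the highest array and water 2 and NTA 1 were the lowest 2. Water 3 stood above every NTA array in the sum, but below NTA 2 and NTA 3 for Vegfa. Not every marker had the order of the sum: Nphs1 was lowest on NTA 2, at 0.59. The part of podocyte RNA in the Vegfa values was not tested.

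Adm encodes adrenomedullin, a vasodilator peptide whose mRNA is one of the more strongly hypoxia-induced in many cells. Its level was 3.19, 2.53 and 2.94 in water and 2.64, 3.15 and 3.22 in NTA. Both groups spread widely (SD 0.33 and 0.32), and each had 1 low array, water 2 and NTA 1. The difference was 0.12 ± 0.22, with an interval of -0.44 to 0.67 (adjusted p = 0.872).

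**Figure D2:**
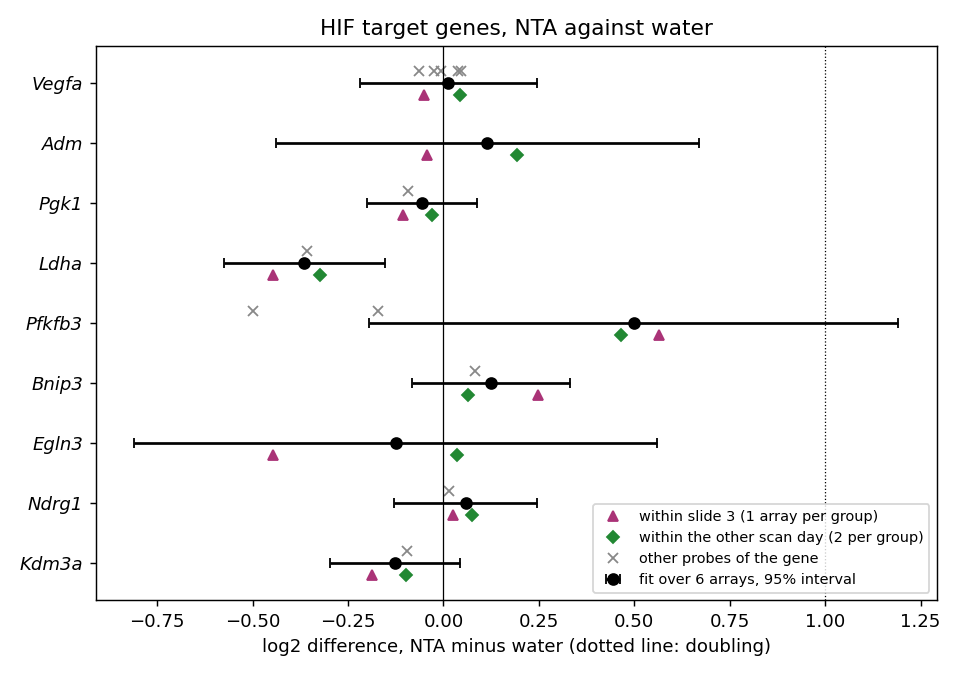
Log2 difference, NTA minus water, for each measured HIF target: black points with bars are the limma fit over 6 arrays with its 95% confidence interval, triangles the difference within slide 3 (1 array per group), diamonds that within the other scan day (2 arrays per group) and crosses the other probes of the gene. The interval of Ldha, from -0.58 to -0.15, lies below 0, that of Pfkfb3 passes 1, and the other 7 contain 0 and end below 1.

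Of the glycolytic targets, Ldha had the lower levels in NTA. It encodes the A subunit of lactate dehydrogenase, which turns pyruvate into lactate. Its level was 5.96, 5.93 and 6.11 in water and 5.68, 5.51 and 5.71 in NTA. Every NTA array lay below every water array. The difference was -0.37 ± 0.09, or 1.29-fold lower, with an interval of -0.58 to -0.15. It did not pass over all genes (unadjusted p = 0.00563, adjusted p = 0.234). The second Ldha probe had levels of 2.77, 2.82 and 3.06 in water and 2.58, 2.41 and 2.58 in NTA. Its groups were also apart, with a difference of -0.36, close to that of the first probe. Within slide 3, the only slide that held both groups, the difference was -0.45 (water 1 against NTA 2), and within the other scan day it was -0.32. The groups were also apart in the same direction under normexp (-0.39), under quantile normalization (-0.42), with the mean of both probes (-0.36) and in the deposited ratio table (-0.37). Ldha was called in none of the 18 alternatives tried (adjusted p from 0.153 to 0.498). Ldhb encodes the other main subunit of the enzyme and was added after its values were seen. It had a difference of 0.00 ± 0.07, with an interval of -0.18 to 0.18 (adjusted p = 0.999).

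**Figure D3:**
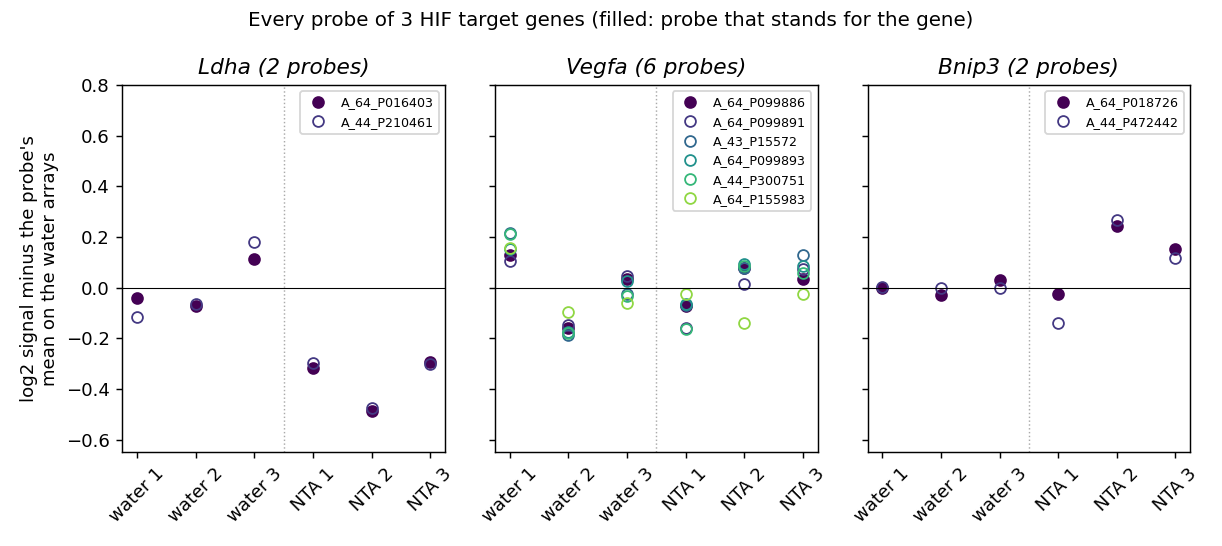
Signal of every probe of Ldha (2 probes), Vegfa (6) and Bnip3 (2) on each array, as log2 signal minus that probe's mean on the water arrays; filled points are the probes that stand for the gene. Both Ldha probes are below their water mean on all 3 NTA arrays, the Vegfa probes lie on both sides of 0 in both groups, and both Bnip3 probes are below their water mean on NTA 1 and above it on NTA 2 and NTA 3.

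Pgk1 encodes phosphoglycerate kinase, an enzyme of the lower part of glycolysis and a standard HIF-1 target. Its level was 7.44, 7.33 and 7.41 in water and 7.33, 7.34 and 7.35 in NTA. The NTA arrays were closely spaced and sat at the lower end of the water range. The difference was -0.05 ± 0.06, with an interval of -0.20 to 0.09 (adjusted p = 0.748), and the second probe stood at -0.09.

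Pfkfb3 makes fructose 2,6-bisphosphate, the activator of phosphofructokinase. Its level was -3.82, -3.28 and -3.47 in water and -3.38, -3.25 and -2.44 in NTA. NTA 3 stood above all other arrays, while NTA 1 lay inside the water range. The difference was 0.50 ± 0.28, the highest of the 9, with an interval of -0.20 to 1.19 that was also the widest (adjusted p = 0.528). Without NTA 3 the difference was 0.21. The other 2 Pfkfb3 probes were dim, well above background on 3 and on 2 of 6 arrays, and their differences were below 0, at -0.17 and -0.50.

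Bnip3 encodes a mitochondrial outer membrane protein that promotes the removal of mitochondria in hypoxia. Its level was 4.91, 4.88 and 4.94 in water and 4.89, 5.16 and 5.07 in NTA. NTA 2 and NTA 3 were above all water arrays and NTA 1 was among them. The difference was 0.12 ± 0.08, with an interval of -0.08 to 0.33 (adjusted p = 0.597), and the second probe stood at 0.08. Without NTA 1 the groups no longer overlapped and the difference was 0.20 (adjusted p = 0.459, against 0.459 to 0.803 over the alternatives).

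Egln3 encodes one of the HIF prolyl hydroxylases and is itself induced by HIF, a feedback loop. Its level was -1.15, -1.69 and -1.79 in water and -1.25, -1.60 and -2.16 in NTA. The lowest array was NTA 3 and the highest water 1, with the others mixed between them. The difference was -0.13 ± 0.28, with an interval of -0.81 to 0.56 (adjusted p = 0.889). The sign was not stable, at -0.45 within slide 3, 0.04 within the other scan day, 0.07 without water 1 and 0.12 without NTA 3.

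Ndrg1, a stress-response gene raised by hypoxia and, in cultured cells, by iron chelators, had levels of 6.89, 6.77 and 6.84 in water and 6.78, 6.92 and 6.97 in NTA. NTA 2 and NTA 3 were the highest arrays by a small margin, and NTA 1 was next to the lowest. The difference was 0.06 ± 0.08, with an interval of -0.13 to 0.25 (adjusted p = 0.799), and the second probe stood at 0.01.

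Kdm3a encodes a histone H3 lysine 9 demethylase that, like the prolyl hydroxylases, needs iron and oxygen. Its level was 1.56, 1.56 and 1.39 in water and 1.36, 1.37 and 1.39 in NTA. Water 1 and water 2 stood above the other arrays, and water 3 was level with NTA 3. The difference was -0.13 ± 0.07, with an interval of -0.30 to 0.04 (adjusted p = 0.512), and the second probe stood at -0.10. Its groups were apart, with NTA lower, under quantile normalization (-0.15) and under normexp background correction (-0.21), and in neither was it called (adjusted p = 0.468 and 0.257; the alternatives together gave 0.257 to 0.705).

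The intervals set how large a rise these arrays would still allow. Of the 9 intervals, 8 ended below a log2 difference of 1, Pfkfb3 being the exception, and 6 ended below 0.5. Among all genes tested, 11233 of 11965 intervals ended below 1 and 9306 below 0.5. No interval of the 9 lay wholly above 0, as 929 of all genes did. A p that misses the threshold does not show that a gene was the same in both groups. The difference had the same sign within slide 3 and within the other scan day for 6 of the 9 genes, and for 6990 of all genes tested. The exceptions were Vegfa (-0.05 and 0.04), Adm (-0.04 and 0.19) and Egln3 (-0.45 and 0.04). Slide and group cannot be told apart on the other scan day, because its water arrays shared slide 1 and its NTA arrays shared slide 2.

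**Figure D4:**
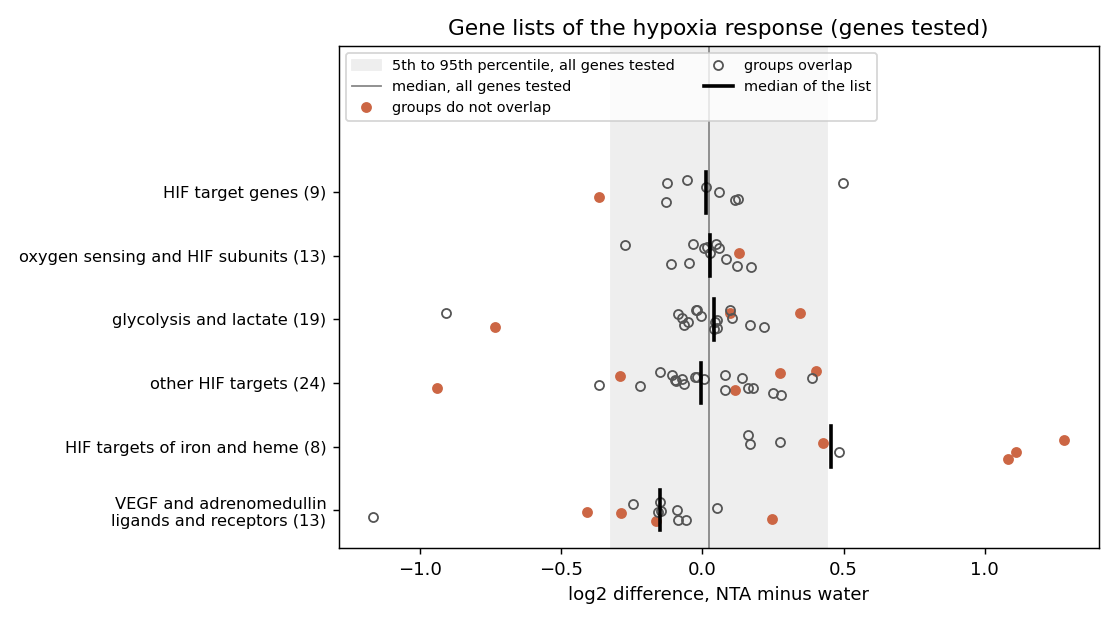
Log2 difference, NTA minus water, of every tested gene in the HIF target list and in 5 further lists, with the number of genes tested in brackets; filled points are genes whose groups do not overlap, black bars list medians, and the grey band and line the 5th to 95th percentile and the median of all genes tested. The list medians run from -0.15 for the VEGF and adrenomedullin list to 0.46 for the iron and heme list.

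The rest of the pathway was read from 5 lists of 86 genes in all, of which 80 had a probe and 76 were tested. None of the 76 was called by limma, where 0.0752% of all genes tested were. At an unadjusted limma p under 0.05, 7 of the 76 were higher and 6 lower. Of all genes tested, 7.76% were higher and 4.51% lower at that threshold. The groups were apart for 17 of the 76, or 22.4%, next to 20.2% of all genes tested. Together the 76 genes had a median of 0.02.

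The subunits and regulators of HIF had a median of 0.03 over 13 genes, with differences of -0.27 to 0.17. An unadjusted limma p under 0.05 was found for 0 of 13, against 12.3% of all genes tested. The alpha subunits stood at 0.0049 (Hif1a), -0.03 (Epas1) and 0.17 ± 0.23 (Hif3a, the highest of the list), and the prolyl hydroxylase Egln2 at 0.05. These 4 were picked for their role after their values were seen. Elob, a partner of the VHL ligase, was the 1 gene of the list whose groups did not overlap, 7.69% against 20.2% of all genes tested (0.13 ± 0.06, adjusted p = 0.469). Vhl itself stood at 0.12 ± 0.07, Arnt at -0.27 ± 0.22, the coactivator Crebbp at -0.11 ± 0.09 and the ligase subunit Rbx1 at 0.08 ± 0.07. The Arnt level was -5.23 on NTA 2 and between -4.50 and -4.36 on the other arrays. The Hif3a level was between -4.75 and -3.92, so the Arnt and Hif3a probes were both far dimmer than that of Hif1a (2.34 to 2.49). The sign for Hif3a was not stable, at 0.84 within slide 3 and -0.16 within the other scan day.

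Genes of glycolysis and of glucose and lactate transport had a median of 0.04 over 19 tested, 10 above 0 and 9 below. The abundant enzymes Eno1 (0.04 ± 0.06) and Gapdh (0.04 ± 0.06) were near 0, and Pkm, which makes pyruvate, stood at 0.22 ± 0.12. The transporters lay farther out than these enzymes, on both sides. The glucose transporter Slc2a1, a classical HIF-1 target, had levels of 1.34, 1.23 and 1.21 in water and 1.75, 1.63 and 1.44 in NTA, so that all NTA arrays were above all water arrays. Its difference was 0.35 ± 0.10 (unadjusted p = 0.0117, adjusted p = 0.282). The monocarboxylate transporter Slc16a1, which carries lactate, had levels of 2.93, 2.72 and 2.56 in water and 1.70, 2.16 and 2.14 in NTA. All NTA arrays were below all water arrays, as for Ldha, with a difference of -0.73 ± 0.16 (adjusted p = 0.226). The lactate exporter Slc16a3, another HIF target, stood at -0.91 ± 0.45 with overlapping groups (adjusted p = 0.48).

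Further HIF targets had a median of -0.01 over 24 tested, 12 above 0 and 12 below, and the groups were apart for 3 higher and 2 lower, 20.8% against 20.2% of all genes tested. Angptl4, an inhibitor of lipoprotein lipase that answers to both HIF and the fatty acid receptor PPARA, had the lowest difference of the list, -0.94 ± 0.13 (adjusted p = 0.0945). The carbonic anhydrase Car12 stood at -0.29 ± 0.09 (adjusted p = 0.319). On the other side were the mitochondrial adenylate kinase Ak4 (0.40 ± 0.08, adjusted p = 0.218) and the membrane-binding protein Anxa2 (0.27 ± 0.07, adjusted p = 0.277). Higd1a, a mitochondrial protein, stood at 0.11 ± 0.06 and Bnip3l, a relative of Bnip3, at -0.06 ± 0.07.

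The ligands and receptors around Vegfa and Adm leaned below 0, 11 of 13, where 5211 of all 11965 genes were, with a median of -0.15. The groups were apart for 3 lower and 1 higher, or 30.8%, against 20.2% of all genes tested. Nrp1, a coreceptor for VEGF, had levels of 0.20, 0.16 and 0.25 in water and -0.34, -0.19 and -0.09 in NTA. All NTA arrays were below all water arrays, with a difference of -0.41 ± 0.08 (adjusted p = 0.216). Vegfb, a second VEGF ligand, stood at -0.29 ± 0.08 (adjusted p = 0.294) and the adrenomedullin-related peptide gene Adm2 at -0.16 ± 0.08. Adrenomedullin acts through Calcrl joined to Ramp2 or Ramp3. Ramp2 stood at -0.25 ± 0.09 (adjusted p = 0.38). Calcrl, the lowest difference of the list, stood at -1.17 ± 0.68 with overlapping groups (adjusted p = 0.544). Water 3 had a Calcrl level of -2.48, and the other 5 arrays lay between -5.62 and -4.56. Ramp3 stood at -0.06 ± 0.16. Calcrl and Ramp3 were named after their values were seen. Ramp1, which with Calcrl makes the receptor of the related peptide CGRP, stood at 0.25 ± 0.12. Kdr, the main VEGF receptor of endothelium, stood at -0.09 ± 0.10 (adjusted p = 0.766). Beside this list, 7 of 9 endothelial markers and 10 of 10 podocyte markers were below 0. Kdr is a member of both this list and the endothelial one. Of other cell types, 6 of 10 proximal tubule markers and 5 of 8 distal tubule and collecting duct markers were below 0, and 1 of 6 macrophage markers. The summed endothelial signal ranged from 80.0 to 93.0 in water and from 78.4 to 86.7 in NTA, and that of podocyte markers from 52.6 to 68.5 and from 47.3 to 60.1. Their part in the values of the ligands and receptors was not tested.

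Genes of iron and heme handling that HIF is known to reach lay higher in NTA. All 8 tested were above 0, where 56.4% of all genes tested were, with a median of 0.46, and the groups were apart for 4 of 8, against 20.2% of all genes tested. None was called by limma, and 4 had an unadjusted p under 0.05, against 12.3% of all genes tested. The transferrin receptor Tfrc had levels of 1.64, 1.76 and 1.92 in water and 3.12, 2.78 and 2.68 in NTA, a difference of 1.08 ± 0.14 (adjusted p = 0.0937). The ferric reductase Cybrd1 stood at 1.28 ± 0.17, heme oxygenase Hmox1 at 1.11 ± 0.14 and the iron importer Slc11a2 at 0.43 ± 0.08. For these 4 genes every NTA array was above every water array. The plasma iron carrier Tf stood at 0.48 ± 0.21 with overlapping groups. Hamp had the lowest difference of the 8, 0.16 ± 0.11 with overlapping groups, and its probe was dim, at levels of -4.64 to -4.20. The count above 0 takes no account of the direction in which HIF moves each gene. Within slide 3, Tf (-0.11) and Cp (-0.02) were below 0 and the rest of the list above. The list median was 0.45 within slide 3 and 0.60 within the other scan day. These genes have other known controls, iron regulatory proteins for Tfrc and Slc11a2 and the factor NRF2 for Hmox1. The earlier results of these data had already shown this pattern, so it is no independent evidence here.

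Markers of the cell types in the cortex were present and gave no gap between the groups. All 10 proximal tubule markers were tested, and their summed signal was 2397 to 2473 in water and 2281 to 2577 in NTA. For all 9 marker lists (podocyte, endothelium, proximal tubule, thick ascending limb, distal tubule and collecting duct, medulla and papilla, interstitium, macrophage, and erythroid) the ranges of the 2 groups overlapped. The medulla and papilla list was highest in NTA 1 and NTA 3, at 164.8 and 162.4, against 142.5 in NTA 2 and 124.6 to 146.2 in water. The 75th percentile of signal was between 1296.0 and 1316.4 on the water arrays and between 1132.6 and 1220.2 on the NTA arrays, and 68.4% to 73.5% of probes were well above background.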

How the data were processed

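Feature Extraction (version 10.7.1.1 per the file headers, 10.7 per the submitters' processing notes) made the deposited intensity values used here. They are spot signals after background correction, on a linear scale, with no normalization between arrays. A further table deposited by the authors gives a ratio, each array's processed signals over a constant of that array. From the values, that constant lies within 0.0718% of the array's 75th percentile. The scale is linear and in the direction of signal, with no centring of genes and column medians of 0.110 to 0.115.

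Of 61657 probes that are not controls, 27460 received 1 gene symbol from the RefSeq table of GRCr8. The level is log2 of processed signal, less the same array's 75th percentile. Spots marked as outliers were dropped, saturated ones were not. To be kept, a probe had to be well above background on all 3 arrays of either group, and a gene's brightest kept probe stood for it. Groups were compared over all 6 arrays with limma 3.58.1 in R 4.3.3 (lmFit and eBayes, two-sided), with Benjamini-Hochberg adjustment over 11965 genes. The series calls the animals biological replicates. The fit was tested on simulated data.

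The file headers give the slide and the day of scanning. Water 2 and water 3 were on slide 1, NTA 1 and NTA 3 on slide 2, and water 1 with NTA 2 on slide 3, scanned on the second day. The members and lists were chosen with earlier results of these data known. All 10 members are named whatever their values. From each pathway list the 4 genes of smallest p and the 2 of highest signal are named. Other names were chosen after their values were seen. Normexp (offset 50) was run on the median spot signal, since the files used here give no mean signal. The other alternatives were quantile normalization, other filters, the mean of a gene's probes, other variance moderation, blocks for day, slide and replicate number, the deposited table, and leaving out each array.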

Additional observations from a re-analysis of the deposited data

How the results depend on the processing

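None of the 9 HIF targets was called by limma under any of the 18 alternatives. In 6 of these (other filters, other moderation, and the day and replicate blocks) the differences equal the main ones. In the other 12, 100 of 108 differences kept their sign. The remaining 8 were Vegfa under quantile normalization (-0.0345) and with slide as a fixed block (-0.0498), Adm with that block (-0.0418), and differences without 1 array. Those without 1 array ranged from -0.0671 to 0.0772 for Vegfa, -0.0617 to 0.297 for Adm and -0.334 to 0.119 for Egln3. The fixed slide block rests on slide 3 alone, with 1 array per group, so its differences are those within slide 3 given above. The number of targets whose groups did not overlap was 1, against 2 under normexp (Ldha and Kdm3a), 3 under quantile normalization (Ldha, Kdm3a and Pgk1) and 1 to 4 without 1 array. Of all genes tested, 20.2% did not overlap, against 21% under normexp, 19.2% under quantile normalization and 28.4% to 31.5% without 1 array, where fewer arrays make a gap easier. In the pathway lists 0 genes were called, against 1 under normexp (Cybrd1, adjusted p = 0.0496) and 3 with trend and robust moderation (Tfrc, Hmox1 and Angptl4, adjusted p from 0.0401 to 0.0474). Over all genes 9 were called, against 20 under normexp, 38 with trend and robust moderation and 1 without moderation. The count was 0 under quantile normalization, without a filter, with scan day as a block and with the replicate block. Leaving out 1 array gave 5 calls without NTA 2 and 0 without any other. The causes were not tested. Arrays with the same replicate number showed little shared deviation from their group means (correlations of 0.0728, -0.0916 and 0.0358). With 3 arrays per group this cannot show whether the animals were paired. With the replicate block in limma, Ldha stood at -0.37 (adjusted p = 0.404). The number of arrays limits the precision: the widest interval, that of Pfkfb3, spans -0.20 to 1.19.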
